A study of Mus musculus with 20 samples.

Results

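The 7 mouse genes that encode the isoforms of phosphofructokinase and of its activating enzyme were followed through 12 RNA-seq libraries labelled as TH17 cells, the CD4 T cells that make interleukin-17. They were taken by gene symbol, 7 of the 24862 genes in each count table, and all 7 had a row in every table. Pfkl, Pfkm and Pfkp encode the liver, muscle and platelet types of 6-phosphofructo-1-kinase (PFK-1). Pfkfb1, Pfkfb2, Pfkfb3 and Pfkfb4 encode the 6-phosphofructo-2-kinase/fructose-2,6-bisphosphatases (PFKFB).

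The libraries form 6 groups of 2 replicates, all from C57BL/6 mice. GFP-positive cells, labelled TH17, were sorted from central nervous system (CNS) suspensions and from ileum suspensions, with 50000 cells per preparation. The sources used here do not give the promoter driving GFP, the disease model or the ages of the mice. TH17(β) cells were grown from naive CD4 T cells with 2 ng/ml TGF-β1 and 20 ng/ml IL-6, and carried one of 2 constructs, Ad-c-Rel, which overexpresses c-Rel, or Ad-control. TH17(23) cells were grown with IL-23, IL-1β and IL-6, at 20 ng/ml for each, from naive CD4 T cells of miR-21-/- mice or of control mice (Control). All cultures were stimulated through CD3ε and CD28, and the protocol for the TH17(β) cultures also lists antibodies that block IL-4 and IFN-γ. The sorted cells went through a SMART-Seq v4 low-input kit and the TH17(23) cultures through a stranded total RNA kit. The labels do not say whether replicates were separate animals or cultures, so p-values measure the spread between these libraries, which may be technical.

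PFK-1 adds a phosphate to fructose 6-phosphate and commits the sugar to glycolysis. The active enzyme is a tetramer that can mix the liver, muscle and platelet subunits. Its strongest activator is fructose 2,6-bisphosphate, which PFKFB enzymes make with one domain and break down with another. Activated T cells raise glycolysis as they grow and divide, and the title of the series names glycolysis as the process acted on by miR-21, Peli1 and c-Rel.

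The isoforms lie on separate chromosomes. In the RefSeq annotation of GRCm38.p6, Pfkl spans chromosome 10 from 77986947 to 78009807, Pfkm chromosome 15 from 98092589 to 98132447 and Pfkp chromosome 13 from 6579874 to 6649060. Pfkfb1 spans chromosome X from 150587445 to 150643878 and Pfkfb2 chromosome 1 from 130689043 to 130729253. Pfkfb3 spans chromosome 2 from 11471430 to 11554071 and Pfkfb4 chromosome 9 from 108988272 to 109032236.

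The promoter windows of Pfkfb3, Pfkl and Pfkp are shown because these 3 genes carry the differences described below between CNS and ileum or between miR-21-/- and Control. Each is the RefSeq sequence from 250 bases before to 50 bases after an annotated start (GRCm38.p6), read 5′ to 3′ on the minus strand on which all 3 genes lie. Capitals mark ACGTG, one form of the core of hypoxia response elements, on either strand. The form GCGTG was not counted or marked. In the second Pfkfb3 window they mark CACGTG, an E-box that holds ACGTG on both strands.
Pfkfb3 start 1, chr2:11553880-11554179: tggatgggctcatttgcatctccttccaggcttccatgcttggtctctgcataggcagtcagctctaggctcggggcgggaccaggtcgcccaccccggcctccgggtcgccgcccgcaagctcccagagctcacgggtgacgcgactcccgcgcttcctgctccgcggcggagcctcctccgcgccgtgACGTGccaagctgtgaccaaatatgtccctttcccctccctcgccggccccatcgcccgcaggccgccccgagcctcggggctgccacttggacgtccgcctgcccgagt
Pfkfb3 start 2, chr2:11502041-11502340: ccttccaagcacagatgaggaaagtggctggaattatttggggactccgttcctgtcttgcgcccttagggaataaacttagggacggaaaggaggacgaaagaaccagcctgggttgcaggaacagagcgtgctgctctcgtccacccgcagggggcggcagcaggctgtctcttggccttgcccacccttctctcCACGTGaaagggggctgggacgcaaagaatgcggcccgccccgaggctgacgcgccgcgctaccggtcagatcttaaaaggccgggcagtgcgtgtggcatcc
Pfkl, chr10:78009758-78010057: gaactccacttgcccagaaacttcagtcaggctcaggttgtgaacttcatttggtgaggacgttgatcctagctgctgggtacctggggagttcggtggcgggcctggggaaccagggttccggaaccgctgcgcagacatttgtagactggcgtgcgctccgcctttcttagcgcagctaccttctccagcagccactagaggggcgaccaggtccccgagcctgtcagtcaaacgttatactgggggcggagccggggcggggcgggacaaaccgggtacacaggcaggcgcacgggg
Pfkp, chr13:6648722-6649021: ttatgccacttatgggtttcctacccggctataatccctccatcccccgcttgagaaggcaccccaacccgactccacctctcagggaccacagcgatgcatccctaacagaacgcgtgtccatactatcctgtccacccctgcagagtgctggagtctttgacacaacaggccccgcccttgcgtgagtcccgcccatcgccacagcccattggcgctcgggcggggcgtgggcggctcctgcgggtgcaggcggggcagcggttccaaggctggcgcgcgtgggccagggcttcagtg

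The first Pfkfb3 window holds ACGTG once, with its first base 60 bases before the start. The second holds the E-box, with its first base 53 bases before the start. Neither the Pfkl nor the Pfkp window holds ACGTG on either strand, but both hold the unmarked form GCGTG, as does the second Pfkfb3 window. The 7 genes have 16 annotated windows, and 6 of them hold ACGTG, which is 37.5%, against 19.6% of 32851 mouse windows of the same length. The 32851 windows leave out 1 chromosome, which holds none of the 7 genes, and are called all windows below. These 6 windows belong to Pfkm, Pfkfb2 and Pfkfb3. CACGTG was in 3 of the 16 windows, 1 for each of these 3 genes, and in 7.15% of all windows. The κB consensus, the DNA word read by Rel proteins such as c-Rel, was in 2 of the 16 windows, the fourth start of Pfkm and the second of Pfkfb2, and in 8.46% of all windows. These matches describe letters only, and the gene counts do not show which start was used.

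The deleted RNA in the TH17(23) comparison is shown for its identity, with its seed (bases 2 to 8) in capitals.
mmu-miR-21a-5p, chr11:86584120-86584141, minus strand: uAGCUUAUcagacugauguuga

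Gene counts summed to between 15421743 and 19930807 in the sorted and TH17(β) libraries, and to between 32766097 and 36711252 in the TH17(23) libraries. Levels are given as CPM, a gene's count scaled to the total of gene counts in its library. Rel, the gene of c-Rel, had 57.5 and 61.9 CPM in Ad-c-Rel and 10.8 and 7.02 CPM in Ad-control. The Mir21a precursor gene had 0 and 0 counts in miR-21-/- and 25 and 20 counts in Control. Both targeted genes thus went with their labels. In the sorted cells the labelled cell type was less clear. The 5 TH17 markers summed to 261 and 235 CPM in CNS, against 7904 and 8958 CPM in ileum. The 12 T cell markers summed to 5561 and 5664 CPM in CNS and 6778 and 6613 CPM in ileum. The 16 markers of myeloid cells and microglia summed to 27778 and 28564 CPM in CNS and 2763 and 2976 CPM in ileum, all 16 higher in CNS by the test used below, and to between 124 and 277 CPM in the cultures. None of the 16 was at 0 in either tissue. The 5 neutrophil markers summed to 220 and 219 CPM in CNS and 0.615 and 0.117 CPM in ileum, where Ngp, Ltf and Camp were at 0. Markers of B and plasma cells (6 genes) went the other way, at 10.6 and 1.66 CPM in CNS and 3534 and 3478 CPM in ileum. By the test used below, 4 of these 6 were lower in CNS. CNS replicate 2 and ileum replicate 2 held 11545 and 10771 detected genes, fewer than the 14224 and 13927 of the replicates numbered 1.

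Sorted cells, TH17(β) cultures and TH17(23) cultures differ in origin, treatment and, where the labels give it, kit, so differences in level between these 3 pairs of groups cannot be told apart from them. The plot of isoform levels shows all 12 libraries.

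**Figure D1:**
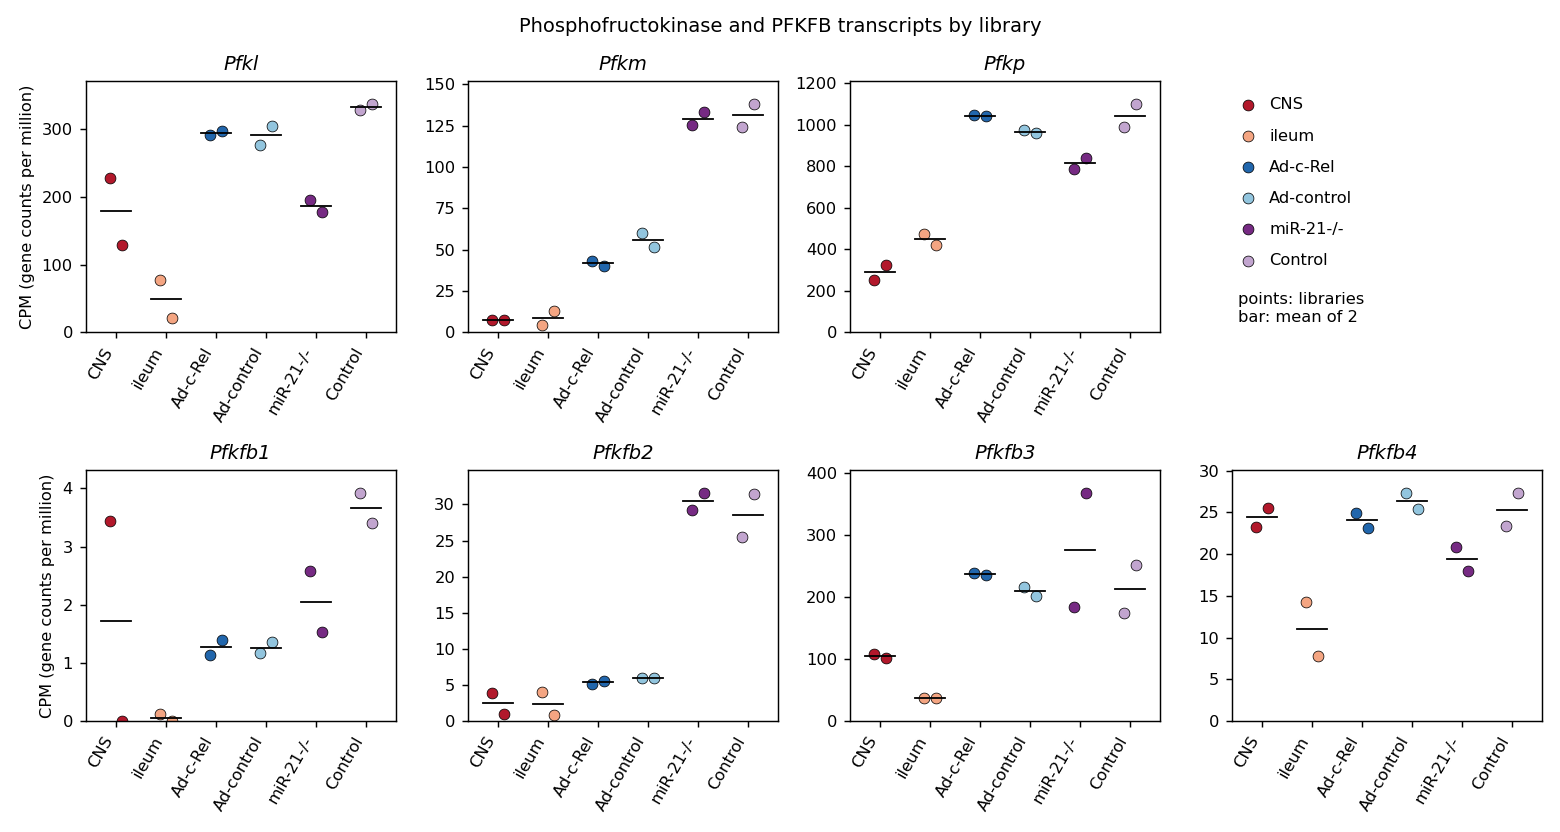
Level of each of the 7 isoforms in CPM (linear vertical axes from 0), with a point for each library and a bar for the group mean, in 6 groups of 2 libraries. Pfkfb3 sits at 108 and 103 CPM in CNS above 38.1 and 36.6 CPM in ileum, and Pfkl sits at 195 and 178 CPM in miR-21-/- below 328 and 337 CPM in Control.

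Pfkl, the liver-type subunit, ran from 332 ± 6.24 CPM in Control through 294 ± 4.38 in Ad-c-Rel, 290 ± 20.2 in Ad-control, 186 ± 12.3 in miR-21-/- and 178 ± 69.8 in CNS to 49.3 ± 39.7 in ileum (mean ± SD, n = 2 each). The ranges of Ad-c-Rel and Ad-control overlapped, and so did those of miR-21-/- and CNS; the other neighbours in that order did not. Pfkm, the muscle-type subunit, had 131 ± 9.80 CPM in Control and 129 ± 5.68 CPM in miR-21-/-, whose ranges overlapped, then 56.0 ± 5.90 in Ad-control and 41.8 ± 2.00 in Ad-c-Rel. Its lowest levels were 8.73 ± 5.74 CPM in ileum and 7.5 ± 0.352 CPM in CNS, again with overlapping ranges. Pfkp, the platelet-type subunit, had 1044 ± 79.8 CPM in Control and 1044 ± 2.5 CPM in Ad-c-Rel, which overlapped, followed without overlap by 967 ± 9.40 in Ad-control, 815 ± 37.5 in miR-21-/-, 448 ± 34.3 in ileum and 289 ± 48.2 in CNS. By mean, Pfkl, Pfkm and Pfkp thus each had their 2 lowest groups among the sorted cells, as did Pfkfb2 and Pfkfb3 below.

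Pfkfb3, the inducible PFKFB isoform with high kinase and low phosphatase activity, had 277 ± 130 CPM in miR-21-/-, 238 ± 1.92 in Ad-c-Rel, 213 ± 55.6 in Control and 210 ± 10.4 in Ad-control, each range overlapping the next. Below them and apart from them stood CNS at 105 ± 3.98 CPM and ileum at 37.4 ± 1.08 CPM. Pfkfb4, the isoform first known from testis, kept to a narrow band: its means were 26.4 CPM in Ad-control, 25.3 in Control, 24.4 in CNS and 24.1 in Ad-c-Rel, with overlapping neighbours. It was lower in miR-21-/- at 19.4 ± 2.06 CPM and in ileum at 11 ± 4.57 CPM, without overlap.

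Pfkfb2, the isoform first known from heart, was higher in both TH17(23) groups than in any other. It had 30.4 ± 1.72 CPM in miR-21-/- and 28.5 ± 4.26 CPM in Control, against 5.36 ± 0.256 in Ad-c-Rel, 6.00 ± 0.0423 in Ad-control, 2.46 ± 2.08 in CNS and 2.44 ± 2.29 in ileum. The ranges of miR-21-/- and Control overlapped, and so did those of CNS and ileum. Pfkfb1, the isoform first known from liver and skeletal muscle, stayed below 4 CPM in every library. It had 58 counts in CNS replicate 1 and 0 in CNS replicate 2, and 2 and 0 counts in ileum replicates 1 and 2. At that depth a count of 0 allows up to 0.156 CPM in CNS replicate 2 and 0.176 CPM in ileum replicate 2, for counting error only (3 counts).

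The balance of isoforms within a family was measured as each gene's share of the family's counts in a library, in which the library's scaling cancels. These shares are not divided by transcript length, so they do not rank one isoform against another, but the share of a single gene can be compared between groups. With 2 libraries a group, the exact permutation test over libraries (two-sided) cannot give a p below 0.333, so no share difference could pass 0.05.

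In the sorted cells the PFK-1 counts divided differently between Pfkl and Pfkp. Pfkl made up 46.5% and 28.1% of PFK-1 counts in CNS, against 14.0% and 4.63% in ileum. Pfkp made up 52.0% and 70.3% in CNS, against 85.2% and 92.6% in ileum. The groups did not overlap for either gene, and the replicates within each tissue differed widely. The mean Pfkp share was 61.1% ± 12.9 in CNS and 88.9% ± 5.22 in ileum, a difference of -27.7 percentage points (exact permutation p = 0.333, n = 2 each). The mean Pfkl share was 37.3% ± 13 in CNS and 9.30% ± 6.60 in ileum, a difference of 28.0 points with the same p. Pfkm kept a small share in both, at 1.48% and 1.69% in CNS and 0.844% and 2.80% in ileum. The PFK-1 sum itself was 475 ± 21.3 CPM in CNS and 506 ± 68.3 CPM in ileum, with overlapping ranges (490 and 460 CPM in CNS, 554 and 458 CPM in ileum).

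The log2 ratio of Pfkl to Pfkp counts was -0.16 and -1.32 in CNS and -2.61 and -4.32 in ileum, a difference of 2.72 (SE 1.03). Replicate 2 had the lower ratio in each tissue. The summed myeloid markers and the summed B and plasma cell markers of each library are given above. The part of RNA from either source in the Pfkl and Pfkp difference was not tested. In bulk samples fewer cells of a type and less RNA per cell cannot be told apart.

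In the cultures the shifts were smaller. In TH17(β) cells Pfkm made up 3.13% and 2.93% of PFK-1 counts in Ad-c-Rel and 4.59% and 3.94% in Ad-control, and Pfkp made up 75.8% and 75.5% in Ad-c-Rel and 74.3% and 72.9% in Ad-control. Neither pair overlapped, at differences of -1.23 and 2.04 points (exact permutation p = 0.333 for each, n = 2 each). Pfkl shares overlapped, at 21.1% and 21.5% in Ad-c-Rel and 21.1% and 23.1% in Ad-control. In TH17(23) cells Pfkl made up 17.6% and 15.4% in miR-21-/- and 22.8% and 21.4% in Control, a difference of -5.58 points without overlap. Shares of a family add up to the whole, so a lower Pfkl share raises the others. Pfkm had 11.3% and 11.6% in miR-21-/- and 8.63% and 8.76% in Control. Pfkp had 71.1% and 73.0% in miR-21-/- and 68.6% and 69.9% in Control. In CPM Pfkm overlapped between these groups and Pfkp was lower in miR-21-/-. The log2 ratio of Pfkm to Pfkp counts was -2.65 and -2.66 in miR-21-/- and -2.99 and -2.99 in Control, a difference of 0.34. It was -4.60 and -4.69 in Ad-c-Rel and -4.02 and -4.21 in Ad-control, a difference of -0.53. Neither pair of groups overlapped, and the exact permutation p was 0.333 for each (n = 2 each).

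**Figure D2:**
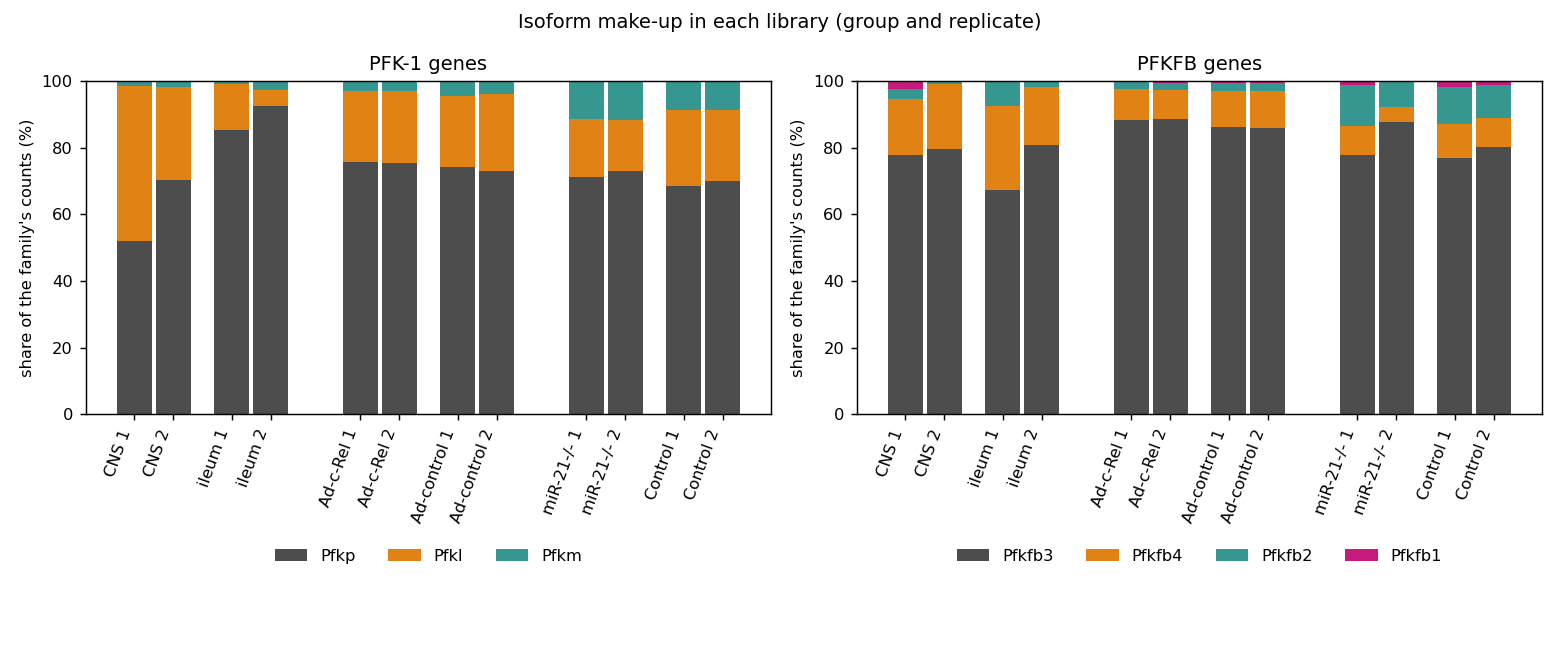
Stacked bars of the percentage of PFK-1 counts (left) and PFKFB counts (right) that each isoform took in each of the 12 libraries, not divided by transcript length. Pfkl takes 46.5% and 28.1% of PFK-1 counts in CNS against 14.0% and 4.63% in ileum, and Pfkfb3 takes more than 67% of PFKFB counts in every library.

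Among the PFKFB counts, Pfkfb3 had between 67.4% and 88.7% in all libraries. Its share was 77.9% and 79.5% in CNS and 67.4% and 80.9% in ileum, which overlap. The PFKFB sum, of which Pfkfb3 is the larger part of the counts, was 134 ± 6.91 CPM in CNS and 50.9 ± 8.03 CPM in ileum. In TH17(β) cells its share was 88.4% and 88.7% in Ad-c-Rel and 86.3% and 86.1% in Ad-control, a difference of 2.42 points without overlap. Pfkfb4 had 9.23% and 8.68% there in Ad-c-Rel and 10.9% and 10.8% in Ad-control, and the log2 ratio of Pfkfb3 to Pfkfb4 counts was 0.32 higher in Ad-c-Rel (exact permutation p = 0.333, n = 2 each). In TH17(23) cells the Pfkfb3 share was 77.8% and 87.8% in miR-21-/- and 76.8% and 80.3% in Control, which overlap. Pfkfb2 had 12.3% and 7.53% in miR-21-/- and 11.2% and 10.0% in Control there, while in the other 4 groups its highest share was 7.17%, in ileum replicate 1.

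The first comparison sets the sorted GFP-positive cells of the CNS, labelled as TH17 cells, against those of the ileum. Pfkfb3 was the only member that passed the test, 1 of the 6 tested, and it rose 2.45-fold in CNS. It had 108 and 103 CPM in CNS against 38.1 and 36.6 CPM in ileum, and every CNS library was above every ileum library. Its log2 fold change was 1.30 (SE 0.246), with an adjusted p of 0.0341 by edgeR's quasi-likelihood test with Benjamini-Hochberg adjustment over all 12038 genes tested. Of all genes tested, 9.66% were called at an adjusted p below 0.05 (482 higher and 681 lower), so 1 of 6 members is near the background. In the same libraries all 16 myeloid markers were called higher in CNS (median log2 fold change 2.83) and 4 of the 5 TH17 markers lower (median -4.67), and their part in the Pfkfb3 difference was not tested.

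Pfkp had 255 and 323 CPM in CNS and 472 and 424 CPM in ileum, without overlap, and its log2 fold change of -0.83 (SE 0.185) had an adjusted p of 0.0528. Pfkl had 228 and 129 CPM in CNS and 77.4 and 21.2 CPM in ileum, also without overlap, at 1.64 (SE 0.655, adjusted p = 0.207). The Pfkl replicates of each tissue lay far apart, which the wide SE shows. Pfkfb4 had 23.3 and 25.5 CPM in CNS and 14.3 and 7.81 CPM in ileum, at 0.94 (SE 0.607, adjusted p = 0.434). Pfkm had 7.25 and 7.75 CPM in CNS and 4.68 and 12.8 CPM in ileum, and Pfkfb2 had 3.92 and 0.988 CPM in CNS and 4.06 and 0.822 CPM in ileum. For both the groups overlapped, and the log2 fold changes were -0.41 (SE 0.948) and -0.22 (SE 1.78); under a scaling to the T cell markers both were above 0, at 0.07 and 0.31. Pfkfb1 did not pass the filter on low counts and was not tested in this fit.

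In these libraries 3 members were higher in CNS without overlap, Pfkl, Pfkfb3 and Pfkfb4, and 1 lower, Pfkp; over all genes with counts the shares were 30.8% and 17.3%. The median log2 fold change over all genes was 0.08 with edgeR's TMM factors, 0.28 with library totals alone and 0.57 after scaling to the T cell markers. Relative to the median with TMM, Pfkfb3 stood at 1.22 and Pfkp at -0.91. After scaling to the T cell markers, which moves all genes nearly alike, Pfkfb3 was at 1.79 (edgeR adjusted p = 0.0108) and Pfkp at -0.34 (0.276). The split of called genes moved with it, at 482 higher and 681 lower with TMM, 643 and 512 with library totals and 1017 and 362 after scaling to the T cell markers.

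The Pfkfb3 call was lost without CNS replicate 1 (adjusted p = 0.125), CNS replicate 2 (0.126) or ileum replicate 2 (0.0883), by edgeR, at log2 fold changes between 1.24 and 1.28, and kept without ileum replicate 1 (1.35, adjusted p = 0.0498). DESeq2, which called 20.6% of 12339 genes, also called Pfkl (adjusted p = 0.0287) and Pfkp (0.000800), and edgeR without ileum replicate 1 called Pfkl at 2.90 (adjusted p = 0.0139), against 0.98 without ileum replicate 2; Pfkp passed without CNS replicate 2 (-1.07, adjusted p = 0.0221).

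**Figure D3:**
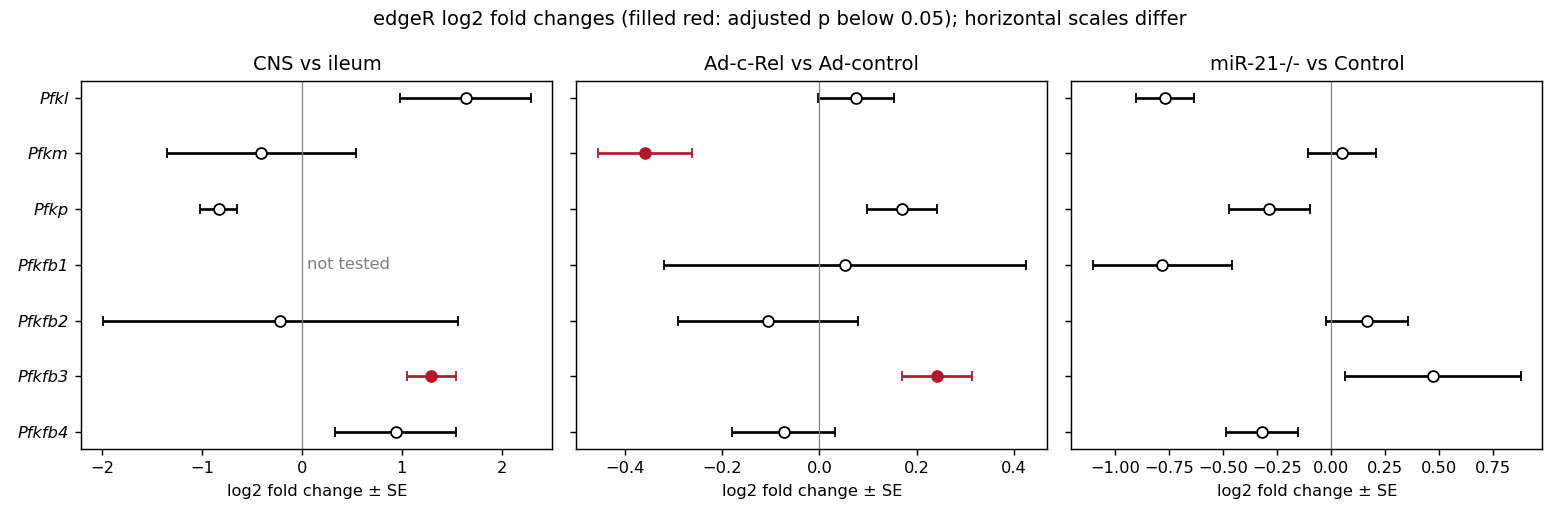
Log2 fold change of each isoform with its standard error, from edgeR, in CNS over ileum, Ad-c-Rel over Ad-control and miR-21-/- over Control (horizontal axis; 0 means no difference). Pfkfb3 is called at 1.30 in CNS and 0.24 in Ad-c-Rel and Pfkm at -0.36 in Ad-c-Rel, and Pfkl has -0.77 in miR-21-/- without a call.

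The rest of glycolysis was higher in CNS in several steps. Of the 22 glycolytic enzymes and transporters outside the phosphofructokinase step, 20 were tested, 7 rose in CNS and 0 fell, with a median log2 fold change of 0.67 against 0.08 over all genes; at an unadjusted p below 0.05 there were 11 higher and 1 lower, and DESeq2 called 10 higher and 1 lower. Ldhb, the heart-type lactate dehydrogenase subunit, had 174 and 190 CPM in CNS against 7.87 and 11.1 CPM in ileum (4.06, SE 0.290). Tpi1, triose phosphate isomerase, had 466 and 468 CPM in CNS against 119 and 133 CPM in ileum. Pgam1, phosphoglycerate mutase, had 481 and 495 CPM in CNS against 156 and 130 CPM in ileum, and Slc16a3, a lactate exporter, had 118 and 177 CPM in CNS against 30.8 and 21.5 CPM in ileum. These 4 had the smallest p of the list, with edgeR adjusted p between 0.00190 and 0.0180. The count of genes that rose was 8 with library totals alone, 11 after scaling to the T cell markers and between 5 and 9 when 1 library was left out. The myeloid markers were higher beside this list in the same libraries, and their part in it was not tested.

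The 12 regulators of this step were hypoxia-inducible factor, Myc, subunits of AMP-activated kinase, Akt and the ubiquitin ligase activator Fzr1. Of these, 10 were tested, 1 fell in CNS and 0 rose, at a median of -0.52. Over all genes edgeR called 5.66% lower, so 1 of 10 is near the background. At an unadjusted p below 0.05 there were 0 higher and 3 lower. DESeq2 called 0 higher and 2 lower, beside 10.8% of all genes lower. The gene that fell was Hif1a, the hypoxia-inducible factor known to switch on Pfkfb3, with 950 and 822 CPM in CNS against 1642 and 1302 CPM in ileum (-0.94, SE 0.165, edgeR adjusted p = 0.0278). After scaling to the T cell markers 0 of the 10 were called and their median was -0.02, and without ileum replicate 1 edgeR called 2 higher (Prkag2 and Akt1) and 1 lower. Of the enzymes that oppose PFK-1, Tigar breaks down fructose 2,6-bisphosphate and had 8.38 and 30.3 CPM in CNS and 7.44 and 0 CPM in ileum (2.16, SE 2.08, edgeR adjusted p = 0.614). Fbp1 and Fbp2 reverse the PFK-1 step and had 0 counts in every library except 1 count of Fbp1 in Control replicate 1 and 92 counts of Fbp2 in ileum replicate 2.

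The c-Rel comparison asks what the c-Rel construct alters in TH17(β) cells. Of 7 members tested, Pfkfb3 rose and Pfkm fell in Ad-c-Rel, both by small amounts. Over all 11711 genes tested, 14.3% were called (956 higher and 717 lower), against 2 of the 7 members. Pfkfb3 had 239 and 236 CPM in Ad-c-Rel against 217 and 202 CPM in Ad-control, a 1.18-fold rise (log2 fold change 0.24, SE 0.0730, edgeR adjusted p = 0.0378). Pfkm had 43.2 and 40.4 CPM in Ad-c-Rel against 60.2 and 51.8 CPM in Ad-control (-0.36, SE 0.0970, edgeR adjusted p = 0.0220). Neither gene overlapped between the groups. DESeq2, which called 9.80% of 10943 genes, also called both (adjusted p = 0.0382 for Pfkfb3 and 0.0490 for Pfkm).

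Rel itself had a log2 fold change of 2.82 in the same fit. Pfkp had 1046 and 1042 CPM in Ad-c-Rel and 973 and 960 CPM in Ad-control, without overlap and without passing (0.17, SE 0.0716, edgeR adjusted p = 0.131). Pfkl had 291 and 297 CPM in Ad-c-Rel and 276 and 305 CPM in Ad-control, with overlap (0.08, SE 0.0786), and was at -0.06 after scaling to the T cell markers. The remaining PFKFB genes did not pass either. Pfkfb2 had 5.18 and 5.54 CPM in Ad-c-Rel and 6.03 and 5.97 CPM in Ad-control, and Pfkfb4 had 25.0 and 23.1 CPM in Ad-c-Rel and 27.4 and 25.4 CPM in Ad-control. Pfkfb1 had 1.14 and 1.4 CPM in Ad-c-Rel and 1.17 and 1.35 CPM in Ad-control. Their adjusted p by edgeR ran from 0.70 to 0.949. Without overlap, 2 members were higher (Pfkp and Pfkfb3) and 3 lower (Pfkm, Pfkfb2 and Pfkfb4), beside 19.6% and 30.2% of all genes with counts.

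The Pfkfb3 call rested on the scaling and on single libraries: its adjusted p by edgeR was 0.0939 with library totals alone (0.18) and 0.301 after scaling to the T cell markers (0.10), and it was lost without Ad-c-Rel replicate 1 (0.185), Ad-c-Rel replicate 2 (0.223) or Ad-control replicate 2 (0.0956). The Pfkm call was lost without Ad-c-Rel replicate 2 or Ad-control replicate 1 (adjusted p = 0.140 for each). The T cell scaling moved the median of all genes to -0.15, against -0.01 with TMM, relative to which Pfkfb3 stood at 0.25 and Pfkm at -0.35. The split of called genes was 956 higher and 717 lower with TMM, 669 and 1027 with library totals and 537 and 2222 after T cell scaling.

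Around the phosphofructokinase step, the genes that rose in Ad-c-Rel were those for glucose uptake, hexokinase and lactate transport. Of 18 tested, 6 rose and 1 fell, at a median log2 fold change of 0.05 against -0.01 over all genes. Of all genes tested, edgeR called 8.16% higher and 6.12% lower. Hk2, the inducible hexokinase, had 65.2 and 78.2 CPM in Ad-c-Rel against 51.9 and 49.8 CPM in Ad-control (0.55, SE 0.0989). Slc2a1, the glucose transporter GLUT1, had 295 and 293 CPM in Ad-c-Rel against 248 and 231 CPM in Ad-control, and Slc2a3, GLUT3, had 2827 and 3166 CPM in Ad-c-Rel against 2164 and 2456 CPM in Ad-control. Slc16a1, a lactate transporter, had 103 and 107 CPM in Ad-c-Rel against 83.1 and 88.6 CPM in Ad-control. The other 2 that rose were Hk1 (0.30) and Slc16a3 (0.31), and the gene that fell was Aldoc, a fructose-bisphosphate aldolase (-0.25). After scaling to the T cell markers 3 rose (Slc2a1, Slc2a3 and Hk2) and 2 fell at a median of -0.09. With library totals alone the same 6 rose at a median of -0.01. One edgeR fit over all 12 libraries called 0 of 20 in either direction, beside 18 higher and 1 lower of 13815 genes. With 1 library left out, 4 to 5 rose and 0 to 1 fell, Slc2a1, Slc2a3 and Hk2 among those that rose each time. Of the 10 regulators tested, 0 rose and 2 fell, Fzr1 (-0.26, edgeR adjusted p = 0.0375) and the kinase subunit gene Prkag2 (-0.38, 0.0486). At an unadjusted p below 0.05 there were 2 higher and 4 lower, beside 3346 of 11711 genes in either direction. DESeq2 called 0 higher and 1 lower, beside 3.98% of all genes lower. Neither Fzr1 nor Prkag2 was called when any 1 of the 4 libraries was left out, and Akt1 was called lower without Ad-c-Rel replicate 1. The 5 TH17 markers summed to 6779 and 6690 CPM in Ad-c-Rel and 3581 and 3862 CPM in Ad-control; their part in these differences was not tested. Tigar had 10.0 and 11.1 CPM in Ad-c-Rel and 8.88 and 9.53 CPM in Ad-control (0.25, SE 0.151, edgeR adjusted p = 0.300).

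The miR-21 comparison asks what loss of miR-21 alters in TH17(23) cells. Pfkl had the smallest p of the 7 members here, at 195 and 178 CPM in miR-21-/- against 328 and 337 CPM in Control. Both miR-21-/- libraries were below both Control libraries, and the log2 fold change was -0.77 (SE 0.133, edgeR adjusted p = 0.125). edgeR called 0 of the 7 members and 0.00% of all 13428 genes tested, with 2821 genes, and 1 of the members, Pfkl, at an unadjusted p below 0.05. The deleted Mir21a was not called either (-7.41, SE 0.990, edgeR adjusted p = 0.117), so the lack of calls does not show a lack of change. DESeq2 called 6.42% of 12345 genes and 1 of the members, Pfkl (-0.75, SE 0.183, adjusted p = 0.00248). With the replicate number as a block, a pairing that the labels do not give, edgeR called 35.8% of all genes. Pfkl was then at -0.77 (edgeR adjusted p = 6.79e-05).

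Pfkfb1 had 2.59 and 1.53 CPM in miR-21-/- against 3.93 and 3.40 CPM in Control, at -0.78 (SE 0.323, edgeR adjusted p = 0.245). Pfkp had 788 and 841 CPM in miR-21-/- and 988 and 1101 CPM in Control, at -0.29 (SE 0.187, edgeR adjusted p = 0.403). Pfkfb4 had 20.9 and 18.0 CPM in miR-21-/- and 23.4 and 27.3 CPM in Control, at -0.32 (SE 0.165, edgeR adjusted p = 0.318). Together with Pfkl these were the 4 members lower without overlap, with 0 higher, beside 27.1% and 20.6% of all genes with counts. The PFK-1 sum was 1130 ± 30.9 CPM in miR-21-/- and 1508 ± 95.9 CPM in Control.

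Pfkfb3 differed widely between replicates in this comparison, with replicate 2 the higher in both groups. It had 185 and 369 CPM in miR-21-/- and 174 and 253 CPM in Control, so the groups overlapped (0.47, SE 0.409, edgeR adjusted p = 0.523). Without miR-21-/- replicate 2 its log2 fold change was -0.21, and without miR-21-/- replicate 1 it was 0.95. Pfkl was at -0.77 and -0.74 in the same fits, in that order. Pfkm had 125 and 133 CPM in miR-21-/- and 124 and 138 CPM in Control, and Pfkfb2 had 29.2 and 31.6 CPM in miR-21-/- and 25.5 and 31.5 CPM in Control. Both lay close to their control levels with overlap, at 0.05 (SE 0.158) and 0.17 (SE 0.190); Pfkm was at -0.02 with library totals alone. The T cell scaling moved the median of all genes to 0.11, against -0.02 with TMM, relative to which Pfkl stood at -0.75.

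Of the other glycolytic genes 19 were tested and edgeR called 0, with 7 above 0 and 12 below. Their median was -0.17 against -0.02 over all genes. At an unadjusted p below 0.05 there were 1 higher and 3 lower, beside 2821 of 13428 genes in either direction. DESeq2 called 1 higher (Eno2) and 2 lower (Hk2 and Slc16a3), beside 2.63% and 3.79% of all genes. Hk2, named here for its place among the genes called in Ad-c-Rel, had 193 and 215 CPM in miR-21-/- and 363 and 407 CPM in Control (-0.84, SE 0.179, edgeR adjusted p = 0.129). Of the 11 regulators tested edgeR called 0, with 1 higher and 0 lower at an unadjusted p below 0.05 and 0 by DESeq2. Tigar had 20.9 and 8.76 CPM in miR-21-/- and 29.6 and 15.7 CPM in Control (-0.57, SE 0.426, edgeR adjusted p = 0.462). The 5 TH17 markers summed to 591 and 244 CPM in miR-21-/- and 1942 and 1356 CPM in Control, and their part in the Pfkl difference was not tested.

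**Figure D4:**
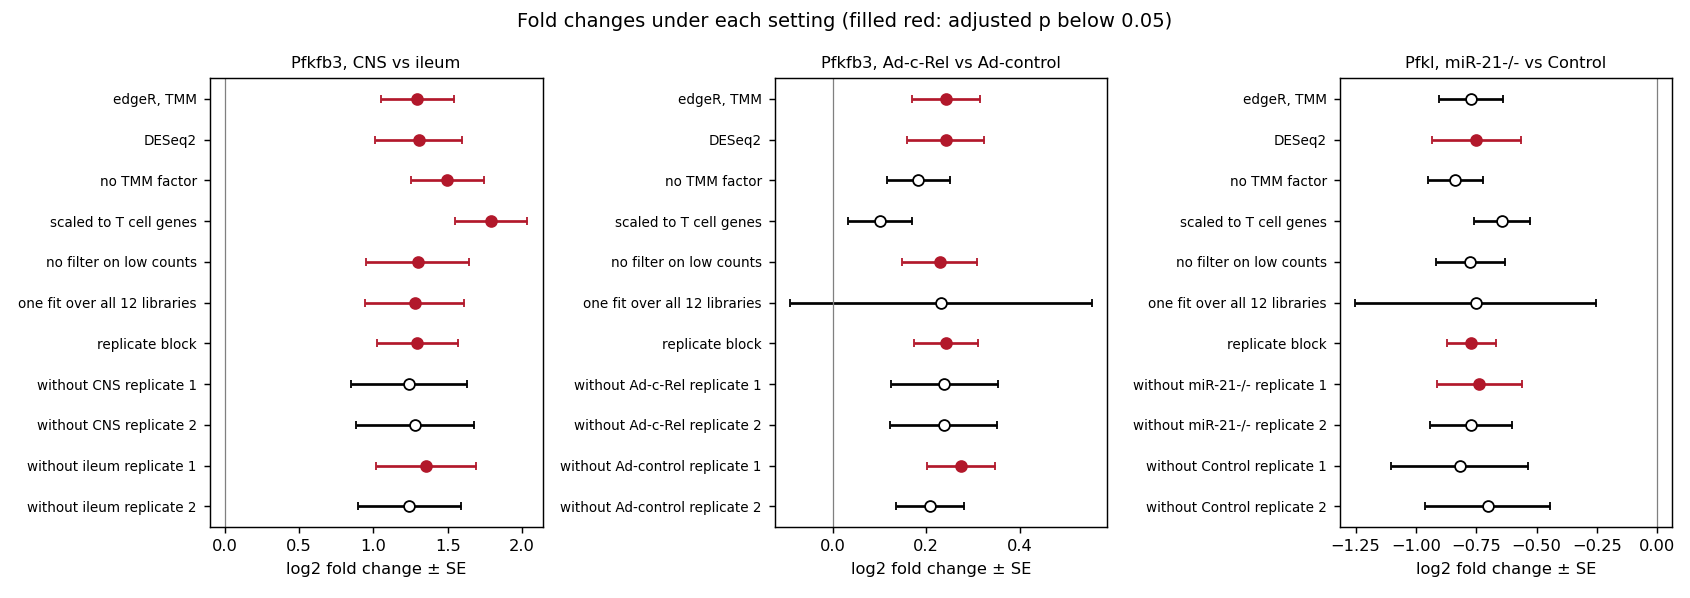
Log2 fold change of Pfkfb3 in CNS over ileum, Pfkfb3 in Ad-c-Rel over Ad-control and Pfkl in miR-21-/- over Control under each processing setting, with filled points where the adjusted p was below 0.05. Pfkfb3 in CNS lies between 1.24 and 1.79 under all settings, and Pfkl in miR-21-/- lies below 0 under all settings.

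The genes with the most similar pattern over the 12 libraries were found by Pearson correlation of log2(CPM + 1) among 9894 genes of at least 5 CPM on average; the libraries share groups, kits and culture types, so these values describe that structure. Pfkfb3 was nearest to Banp (0.970), P4ha1 (0.966) and Pgam1 (0.965), and Pfkl to Pcca (0.985), Nmnat1 (0.981) and Cacfd1 (0.979). Pfkp was nearest to Cd5 (0.983), Tut1 (0.980) and Kcnq5 (0.979), and Pfkm to Hipk2 (0.994), Mif (0.989) and Marf1 (0.984). Among the members themselves, Pfkl went most closely with Pfkfb4 (0.931), Pfkm with Pfkfb2 (0.854) and Pfkp with Pfkm (0.838).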

How the data were processed

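Each library had 1 deposited table of raw counts per gene, made by the authors. Per the submitters' processing notes, which give no roles, the software included TopHat2 2.1.0 and HTSeq 0.11.0 on the mm10 build. The sources used here do not give the annotation or the strand setting, so reads of overlapping or antisense genes cannot be told apart. Summary lines that name no gene (14.7% to 26.1% of each table) stayed out of totals and tests. Reads with several alignments were counted at 0 in the TH17(23) tables and at 2.25% to 3.52% in the others. The 8 ATAC-seq samples were not analysed here.

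A separate edgeR model (version 4.0.16; R version 4.3.3) was fitted to the whole table for every comparison, on its 4 libraries (filterByExpr filter, TMM factors, quasi-likelihood F test, two-sided, Benjamini-Hochberg adjustment, threshold 0.05) and tested on simulated counts. CPM used library totals without TMM, and SE is the log2 fold change over the root of F. Alternatives were DESeq2 1.42.0, library totals alone, scaling to 12 T cell markers, no filter, a fit over all 12 libraries, the replicate number as a block and leaving out each library. Family shares were planned per length; no transcript length was used here, so they are shares of counts. All 7 members were named in every comparison, with up to 4 called genes of smallest p from each pathway list; Hk1, Slc16a3, Aldoc, Akt1 and, in CNS, Prkag2, and Eno2, Hk2 and Slc16a3 in the miR-21 comparison, were named after their values were seen. The members and lists were chosen with earlier results of these data known. Promoter and miRNA sequences are from RefSeq (GRCm38.p6), in which all 7 members matched by symbol.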

Additional observations from a re-analysis of the deposited data

How the results depend on the processing

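In CNS over ileum, the count of members called was 1 with edgeR and 3 with DESeq2, with no filter, with the fit over 12 libraries and with the replicate number as a block (Pfkl, Pfkp and Pfkfb3 each time), and 0 to 2 when 1 library was left out. In Ad-c-Rel over Ad-control it was 2, against 1 with library totals alone, 1 with T cell scaling, 0 with the fit over 12 libraries and 0 to 1 when 1 library was left out. In miR-21-/- over Control it was 0, against 1 with DESeq2 and 3 with the block (Pfkl, Pfkfb1 at -0.80 and Pfkfb3 at 0.39). The calls over all genes moved too: the fit over 12 libraries called 1988 higher and 2012 lower of 13815 genes in CNS but only 18 higher and 1 lower in Ad-c-Rel, and in CNS the fit with no filter called 1113 higher and 1300 lower of 15684. The replicate numbers were not taken to pair libraries, since the labels tie them to nothing and there are only 2 pairs; same-numbered deviations correlated at 0.107, 0.0432 and 0.563 in the 3 comparisons. With the block, 10.9%, 23.9% and 35.8% of all genes were called, and Pfkp was also called in Ad-c-Rel (0.17, adjusted p = 0.0378).

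Log2 fold changes changed sign only for members not called in the edgeR fit of all 4 libraries. With scaling to the T cell markers, Pfkm was 0.067 in CNS, Pfkfb2 0.31 in CNS, Pfkl -0.064 in Ad-c-Rel and Pfkfb1 -0.085 in Ad-c-Rel. With library totals alone, Pfkfb2 was 0.0087 in CNS, Pfkfb1 -0.0038 in Ad-c-Rel and Pfkm -0.022 in miR-21-/-. Over the left-out libraries, CNS gave -0.94 to 0.46 for Pfkm and -1.51 to 1.39 for Pfkfb2, Ad-c-Rel gave -0.011 to 0.17 for Pfkl and -0.11 to 0.20 for Pfkfb1, and miR-21-/- gave -0.070 to 0.19 for Pfkm, -0.0047 to 0.38 for Pfkfb2 and -0.21 to 0.95 for Pfkfb3. The cause was not tested. With 1 library left out, the lone library of its group was assumed to vary like the other group.

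The Pfkp share difference between CNS and ileum ran from -36.8 to -18.6 points over the left-out libraries, and the Pfkfb3 share difference from -2.24 to 11.3. The share per transcript length and per coding length was not run, because no lengths were used here. Pfkfb1 had 58 and 0 counts in CNS and 2 and 0 in ileum, too few to be tested there.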
